A study of Mus musculus with 30 samples.

Results

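Mouse cells of the iETV2 line given doxycycline (DOX) were set against the control cells of a KDM4A/4C knockout experiment, 3 RNA libraries in each group. The libraries were identified by their labels, while the choice to compare these groups was made with earlier results of these data known, both holding RNA of blood and endothelium. They make up 6 of the 30 samples and 6 of the 18 RNA libraries of a study of the transcription factor ETV2 (ER71) and the histone demethylase KDM4A. In the iETV2 line, per its name and the study's design, DOX is given to switch on Etv2; the line is otherwise described only as embryonic stem cells. The control cells have the genotype Control and no line, treatment or DOX is given for them. Neither group carries a KDM4A or KDM4C change in its labels. The labels give no culture time, differentiation protocol, sex or clone number for either group, and nothing says whether the 3 libraries of a group came from separate cultures, so p-values measure only the spread between these libraries, which may be technical. Line, treatment, experiment and group go together here, so what each of them adds cannot be told apart. For that reason the text reads whole gene programs, large differences and gene ratios inside a library rather than small shifts.

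ETV2 is an ETS-family factor that acts early and briefly in mesoderm marked by Kdr, which encodes a receptor for vascular endothelial growth factor (VEGF). It switches on endothelial genes and the blood regulators Tal1, Lmo2, Fli1 and Gata2, after which other ETS and GATA factors keep the programs going and Etv2 itself falls. In the mouse embryo such cells arise from the primitive streak, where T, Mixl1 and Eomes are active, and the first red cells form in the yolk sac, where they make embryonic globins. Pou5f1, the gene of the pluripotency factor OCT4, is high in stem cells and epiblast and low in blood and endothelium.

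Regulatory sequence of genes on which the comparison turns is shown first, since ETS and GATA factors lead the programs compared. Each line gives the 250 bases before a transcript start in the RefSeq table (GRCm38.p6), written 5' to 3' on the gene's own strand, with the position beside the name. Capitals mark words searched on both strands. The GATA words were AGATAA and its variant AGATAG, together with TGATAA and its variant TGATAG. The ETS words were CCGGAA, a core of ETS sites, along with AGGAAG. No GATA word overlapped an ETS word here. Hba-x and Hbb-y encode embryonic globins, Gata1 the main red-cell GATA factor, Kdr the VEGF receptor, and Tek the angiopoietin receptor, whose RNA lay near between the groups.
Hba-x, chr11:32276350-32276599, plus strand: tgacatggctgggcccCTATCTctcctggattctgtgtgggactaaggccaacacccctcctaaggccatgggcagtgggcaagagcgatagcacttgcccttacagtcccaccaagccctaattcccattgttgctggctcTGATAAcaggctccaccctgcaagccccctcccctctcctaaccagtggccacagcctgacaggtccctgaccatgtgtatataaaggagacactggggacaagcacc
Hbb-y, chr7:103853208-103853457, minus strand: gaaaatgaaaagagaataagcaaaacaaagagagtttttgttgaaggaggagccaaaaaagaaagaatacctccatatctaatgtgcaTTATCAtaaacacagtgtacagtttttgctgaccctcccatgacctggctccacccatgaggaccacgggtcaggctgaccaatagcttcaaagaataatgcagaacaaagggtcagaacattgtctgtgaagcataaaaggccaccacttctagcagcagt
Gata1, chrX:7967911-7968160, minus strand: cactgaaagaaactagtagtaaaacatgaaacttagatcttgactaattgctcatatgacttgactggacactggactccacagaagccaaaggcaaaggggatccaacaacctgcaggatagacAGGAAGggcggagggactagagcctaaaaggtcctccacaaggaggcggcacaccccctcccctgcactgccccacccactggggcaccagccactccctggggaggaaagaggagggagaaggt
Kdr, chr5:75978456-75978705, minus strand: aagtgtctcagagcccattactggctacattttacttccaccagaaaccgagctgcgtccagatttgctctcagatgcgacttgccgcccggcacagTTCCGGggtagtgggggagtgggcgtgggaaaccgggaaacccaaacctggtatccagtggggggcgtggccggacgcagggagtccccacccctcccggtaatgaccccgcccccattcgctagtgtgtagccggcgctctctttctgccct
Tek, chr4:94739039-94739288, plus strand: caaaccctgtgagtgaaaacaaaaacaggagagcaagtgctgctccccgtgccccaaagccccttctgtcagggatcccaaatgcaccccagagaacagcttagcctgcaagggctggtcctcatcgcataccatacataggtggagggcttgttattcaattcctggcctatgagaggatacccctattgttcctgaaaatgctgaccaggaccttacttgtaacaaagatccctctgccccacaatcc
Hba-x had 2 GATA words and Hbb-y 1 GATA word, neither with an ETS word, while Gata1 and Kdr had 1 ETS word each and Tek had none of these words. By the annotated spans, the windows of Kdr (gene at chr5:75932827-75979072) and Gata1 (gene at chrX:7959260-7976663) lie inside the gene, and most of that of Tek (gene at chr4:94739086-94874976) does, so these are not the outermost starts. Across the lists described below, 18 of 23 erythroid genes with a promoter entry held a GATA word (78.3%) and 5 held an ETS word (21.7%). Among endothelial receptors and surface proteins, 3 of 21 promoters held a GATA word (14.3%) and 15 held an ETS word (71.4%). Among endothelial transcription factors, 3 of 13 held a GATA word (23.1%) and 7 an ETS word (53.8%). The promoters of 12855 tested genes held a GATA word in 20.8% and an ETS word in 47.4% of cases, and those of all 27025 genes in the table in 29.7% and 41.5%. Of blood transcription factors, 6 of 19 held a GATA word (31.6%) and 11 an ETS word (57.9%). These words are short and describe the letters of the window, not bound sites.

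Libraries were deep, with 55006350 to 68222429 counts in iETV2 with DOX and 51011246 to 63246156 counts in control cells. The groups differed in low-level RNA spread over many genes. Genes with at least 1 count numbered 33100, 37011 and 41480 in iETV2 with DOX, against 28090, 28347 and 37910 in control cells. The summed level of 1754 olfactory, vomeronasal and trace-amine receptor genes, which these cells are not known to use, was 81.99, 99.16 and 180.9 CPM (counts per 1000000 counts of the library) in iETV2 with DOX, against 19.22, 18.51 and 56.89 CPM in control cells. The third library of each group was the highest of its group in both measures. Mitochondrially encoded genes took 5.138 to 5.347% of counts in iETV2 with DOX and 3.638 to 3.727% in control cells.

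Of 20694 genes tested, 11881 (57.4%) passed an adjusted p of 0.05 in edgeR's quasi-likelihood test with Benjamini-Hochberg adjustment, 5804 higher (28%) and 6077 lower (29.4%) in iETV2 with DOX. With libraries scaled by their totals alone, 7364 were higher and 4393 lower, so that 62.6% of calls were higher in place of 48.9%, and the median log2 difference of all genes was 0.16 in place of 0.01. Since more genes passed than not, "large" is used for an adjusted p under 0.05 with a log2 difference of at least 2 in size, a 4-fold difference. Large differences numbered 1931 genes (9.33%), of which 1512 were higher (7.31%) and 419 lower (2.02%) in iETV2 with DOX. Without the third control library the higher count was 2353. Among the 11633 genes with at least 5 CPM in the higher group, 490 were large and higher (4.21%) and 179 large and lower (1.54%). In CPM of the library totals, the groups did not overlap for 13156 genes (63.6%). Levels below are CPM of the library total; log2 differences are iETV2 with DOX minus control cells, scaled by TMM, with their standard error (SE) and the same adjusted p.

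Etv2, the induced gene, was present in both groups and 2.09-fold higher in iETV2 with DOX. It stood at 19.7, 18.1 and 18.2 CPM in iETV2 with DOX, against 7.33, 8.18 and 8.65 CPM in control cells (log2 difference 1.06 ± 0.08, adjusted p = 9.64e-08). The groups did not overlap. Etv2 averaged 2.93 CPM in iETV2 without DOX and 2.92 CPM in KDM4A/4C DKO cells, the partner groups of the same experiments. The files do not tell RNA of an introduced Etv2 copy from that of the cells' own gene.

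The 4 markers named for these cells did not move together. Kdr had 229, 238 and 233 CPM in iETV2 with DOX, against 354, 352 and 352 CPM in control cells (log2 difference -0.75 ± 0.04, adjusted p = 5.49e-09). Tal1, the basic helix-loop-helix factor needed for all blood, had 37.8, 39.5 and 36.3 CPM in iETV2 with DOX, against 172, 170 and 170 CPM in control cells (-2.32 ± 0.05, adjusted p = 4.5e-13). Runx1, needed for blood stem cells and their endothelial source, had 33.5, 34.9 and 30.0 CPM with DOX, against 212, 202 and 200 CPM in control cells (-2.79 ± 0.06, adjusted p = 7.09e-13). The blood factors thus lay 4.99-fold (Tal1) and 6.91-fold (Runx1) lower in iETV2 with DOX, and Kdr 1.68-fold lower. Pou5f1 ran the other way, with 316, 256 and 344 CPM in iETV2 with DOX, against 22.3, 23.3 and 22.9 CPM in control cells (3.59 ± 0.09, adjusted p = 1.86e-12), a 12.1-fold difference with no overlap. All cells were labelled embryonic stem cells; by these genes the control cells held little OCT4 RNA and much RNA of blood and mesoderm, and iETV2 with DOX held both. In bulk RNA, fewer cells of a type and less RNA per cell cannot be told apart.

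**Figure D1:**
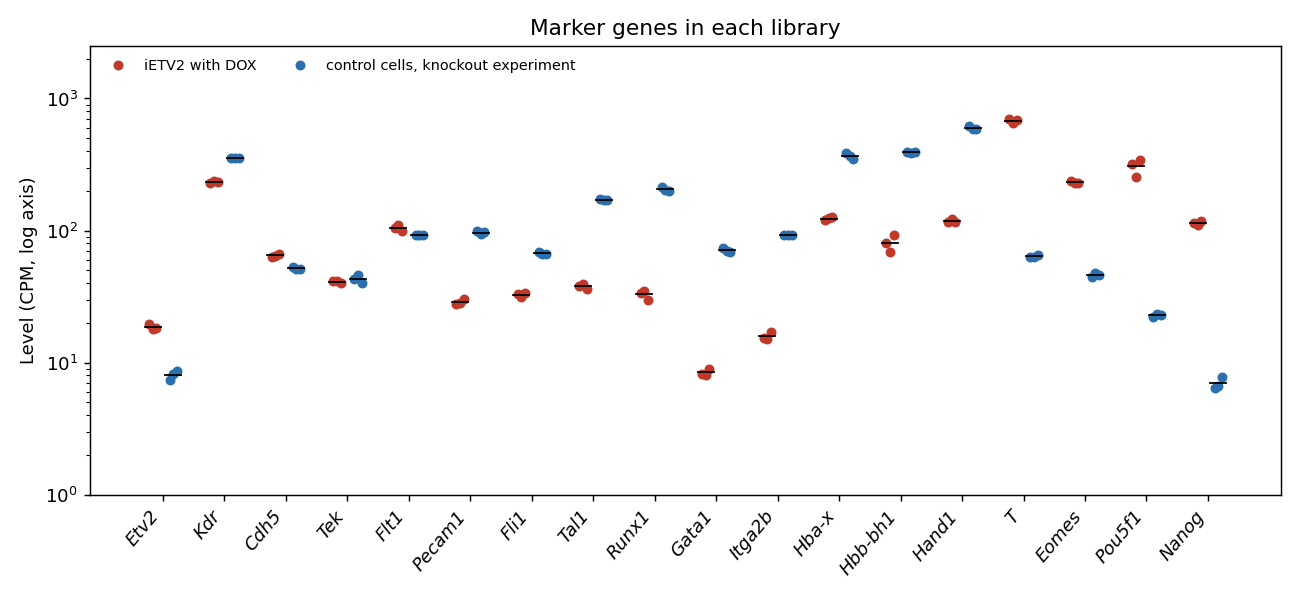
Level of 18 marker genes (CPM, log axis) in each library, with iETV2 with DOX in red and control cells of the knockout experiment in blue; black lines are group means of 3 libraries. Tek and Flt1 sit at like levels, whereas Kdr and Pecam1 lie lower in iETV2 with DOX. Blood genes such as Tal1, Runx1 and Gata1 also lie lower, and T, Eomes, Pou5f1 and Nanog higher.

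Endothelial receptors and surface proteins had as many higher as lower members. Their summed level was 1092 to 1106 CPM in iETV2 with DOX, against 1151 to 1159 CPM in control cells. Of 36 listed genes 35 were tested, of which 14 were higher, 14 lower and 7 did not pass, where 28% of all genes tested were higher and 29.4% lower. In 23 the difference was under 1 log2 unit (65.7%), against 74.8% of all genes tested, so the list as a whole was not nearer between the groups than other genes. The median was -0.02; with libraries scaled by their totals the median was 0.13. Flt1, a VEGF receptor that acts in part as a decoy, had 105, 110 and 98.8 CPM in iETV2 with DOX, against 92.7, 93.2 and 93.1 CPM in control cells (log2 difference 0.02 ± 0.05, adjusted p = 0.763); without the third DOX library it passed at 0.14. Tek had 41.3, 41.1 and 39.8 CPM with DOX, against 42.9, 46.1 and 39.8 CPM in control cells, and Tie1, its partner receptor, 20.3, 20.4 and 20.1 CPM with DOX, against 20.9, 22.8 and 20.4 CPM in control cells. Each differed by -0.23 on the log2 scale, with adjusted p of 0.00909 for Tek and 0.0108 for Tie1, and both calls were lost with libraries scaled by their totals, without the third DOX library (-0.13 and -0.14) or without the first control library (-0.19 and -0.2). Tek overlapped between the groups. Cdh5, the cadherin of endothelial junctions, had 63.1, 64.4 and 66.8 CPM in iETV2 with DOX, against 52.9, 51.0 and 51.1 CPM in control cells (0.18 ± 0.05, adjusted p = 0.00733), a pass that was lost without the second (0.15) or the third control library (0.14). Eng, a TGF-beta co-receptor, and Ptprb, an endothelial phosphatase, averaged 43.6 and 26.1 CPM with DOX, against 39.9 and 23.7 CPM in control cells, with adjusted p of 0.789 and 0.938.

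Single members of the list did differ. Pecam1, an adhesion molecule of endothelium and platelets, had 28.0, 28.3 and 30.2 CPM in iETV2 with DOX, against 98.8, 93.5 and 96.9 CPM in control cells (log2 difference -1.89 ± 0.05, adjusted p = 3.57e-12). Apln, the apelin ligand of sprouting vessels, had 49.4, 48.9 and 48.4 CPM with DOX, against 5.23, 5.72 and 5.46 CPM in control cells (3.01 ± 0.07, adjusted p = 4.9e-13). Its receptor Aplnr was at 195, 193 and 182 CPM with DOX, against 109, 108 and 103 CPM in control cells (0.69). Apln, Aplnr and Flt1 were also high in iETV2 without DOX, at 146.5, 262.8 and 137.9 CPM. Robo4 and Emcn, surface proteins of mature endothelium, were the other large differences of the list, at 2.7 and 3.66. Robo4 averaged 7.39 CPM with DOX and 1.01 CPM in control cells, 1.98 CPM in iETV2 without DOX and 5.3 CPM in DKO cells. Emcn was low in both groups, at 1.63, 2.2 and 2.67 CPM with DOX and at most 0.235 CPM in control cells, in the range where low-level RNA of unrelated receptors also differed; its part in this result was not tested.

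Endothelial transcription factors were lower more often than higher in iETV2 with DOX. Of 20 tested, 11 were lower, 5 higher and 4 did not pass, with 3 large and lower, none large and higher, and a median of -0.65. Among all genes tested, 2.02% were large and lower and 7.31% large and higher. Without the third DOX library 8 were higher, 2 of them large. Fli1, the ETS factor that takes over from ETV2, had 32.9, 31.2 and 33.5 CPM in iETV2 with DOX, against 69.0, 66.9 and 66.7 CPM in control cells (-1.20 ± 0.05, adjusted p = 3.42e-10). Gata2, shared by endothelium and blood progenitors, had 15.2, 16.9 and 17.5 CPM with DOX, against 69.8, 63.0 and 69.0 CPM in control cells (-2.17 ± 0.07, adjusted p = 9.2e-12). Hey2, a Notch target of arterial cells, had 2.53, 2.2 and 3 CPM with DOX, against 23.2, 24.6 and 23.6 CPM in control cells (-3.37). Gata2, Hey2 and Tal1 were the 3 large ones. Within the SOXF family, which acts in vessel growth, members went opposite ways. Sox7 had 27.9, 29.3 and 26.6 CPM with DOX, against 51.9, 49.2 and 48.9 CPM in control cells (-0.99), whereas Sox18 had 14.6, 13.4 and 11.5 CPM with DOX, against 7.60, 6.92 and 7.26 CPM in control cells (0.71). Sox17, which endoderm also uses, had 15.9, 16.0 and 11.9 CPM with DOX, against 3.58, 3.25 and 3.27 CPM in control cells (1.97), and 28.68 CPM without DOX.

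VEGF and Notch signalling genes passed in either direction at shares near those of all genes tested (28% higher and 29.4% lower). Of 26 tested, 8 were higher, 9 lower and 9 did not pass, with a median of 0.00. The ligands Dll1 and Dll3 and the receptor Notch4 were large and higher, and Hey2 was large and lower. Notch4, which is mainly endothelial, had 35.1, 35.1 and 32.8 CPM in iETV2 with DOX, against 4.01, 3.61 and 5.15 CPM in control cells (2.86 ± 0.10, adjusted p = 4.74e-11). Notch4 averaged 13.17 CPM in iETV2 without DOX and 11.42 CPM in DKO cells, both above control cells. Dll1 had 16.3, 18.6 and 17.6 CPM with DOX, against 1.24, 1.06 and 1.83 CPM in control cells (3.50), and is also a gene of presomitic mesoderm. Dll1 and Dll3 averaged 24.79 and 51.8 CPM in iETV2 without DOX, and 9.8 and 12.12 CPM in DKO cells. Nrp2, a co-receptor for VEGF-C, was alike, at 250, 251 and 231 CPM with DOX, against 217, 217 and 221 CPM in control cells (0.01, adjusted p = 0.844); without the third DOX library it passed at 0.13. Vegfa itself averaged 43.9 CPM with DOX and 99.2 CPM in control cells (-1.32).

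Blood transcription factors stood far lower in iETV2 with DOX. Their summed level was 560 to 603 CPM with DOX, against 1342 to 1397 CPM in control cells. All 23 were tested, with 19 lower, 3 higher and 1 that did not pass. Large differences were lower in 10 and higher in none, and the median was -1.69. Over all genes tested, 29.4% were lower, 28% higher, 2.02% large and lower and 7.31% large and higher. Gata1, the lead factor of red cells and megakaryocytes, had 8.24, 8.12 and 8.96 CPM in iETV2 with DOX, against 74.4, 69.5 and 69.2 CPM in control cells (-3.22 ± 0.07, adjusted p = 2.6e-13), 9.34-fold lower. Ikzf1, a zinc finger factor of early blood and lymphoid cells, had 11.2, 11.9 and 11.3 CPM with DOX, against 84.1, 82.2 and 82.1 CPM in control cells (-3 ± 0.06). It averaged 14.68 CPM in iETV2 without DOX. Gfi1, which represses the endothelial program in emerging blood, was low throughout, at 0.439, 0.484 and 0.763 CPM with DOX, against 3.72, 4 and 3.26 CPM in control cells (-2.86), and its relative Gfi1b averaged 7.78 CPM with DOX and 47.1 CPM in control cells (-2.75). The other large ones beside Tal1, Runx1 and Gata2 were Cbfa2t3, a corepressor bound to TAL1 (-2.54), Nfe2, of red cells and platelets (-2.43), and Klf1, an activator of red-cell genes (-2.36). The 3 higher ones were Cbfb (0.40), Mecom (0.74) and Bcl11a (1.40).

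Partner proteins of the GATA, TAL1 and RUNX1 factors were not alike in this. Cbfa2t3, above, and Zfpm1 (FOG1), which binds GATA1 (-1.80), were lower by more than 1 log2 unit, whereas Lmo2, Ldb1 and Cbfb lay within it. Lmo2, the bridging protein, had 62.7, 57.5 and 58.6 CPM in iETV2 with DOX, against 50.7, 50 and 53 CPM in control cells (log2 difference 0.07 ± 0.05, adjusted p = 0.285); it passed without the third DOX library, at 0.16. It averaged 4.76 CPM in iETV2 without DOX. Ldb1, the dimerising partner, had 118, 102 and 106 CPM with DOX, against 120, 116 and 113 CPM in control cells (-0.25), with overlap and no pass without the first control library (-0.19). Cbfb, the partner of RUNX1, had 113, 117 and 106 CPM with DOX, against 72.8, 80.8 and 75.8 CPM in control cells (0.40). Lyl1, a relative of Tal1, followed Tal1, at 4.64, 3.96 and 5.60 CPM with DOX, against 14.3, 13.6 and 13.1 CPM in control cells (-1.69).

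Erythroid genes were present in both groups and mostly lower in iETV2 with DOX. Of 33 listed, 32 were tested, of which 25 were lower, 2 higher and 5 did not pass, where 29.4% of all genes tested were lower. The list held 11 large and lower genes, against 2.02% of all genes tested, and its median was -1.51. Summed levels were 786 to 847.6 CPM with DOX, against 1817 to 1890 CPM in control cells. Hba-x, the embryonic alpha-type globin, had 119, 124 and 126 CPM in iETV2 with DOX, against 385, 366 and 350 CPM in control cells (-1.73 ± 0.05, adjusted p = 1.08e-11). Hbb-bh1, the main embryonic beta-type globin, had 80.8, 68.8 and 92.4 CPM with DOX, against 396, 390 and 394 CPM in control cells (-2.44 ± 0.08, adjusted p = 2.39e-11). Hbb-y, the later embryonic beta-type globin, had 4.01, 4.59 and 5.38 CPM with DOX, against 39.0, 40.4 and 39.9 CPM in control cells (-3.24 ± 0.09, adjusted p = 3.25e-12). The gap was wider in the order Hba-x, Hbb-bh1, Hbb-y, and no globin of the 3 overlapped between groups. In iETV2 without DOX these genes averaged 0.267, 0.184 and 0.0115 CPM, and in the DKO cells 0.436, 1.17 and 0.0276 CPM.

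Within the globins, the embryonic types dominated in both groups. Hba-x made up 91.67 to 94.11% of alpha-type counts in iETV2 with DOX, against 90.87 to 91.52% in control cells. Hbb-bh1 made up 90.15 to 91.97% of beta-type counts with DOX, against 88.73 to 89.75% in control cells. Hbb-y took 4.472 to 6.08% with DOX, against 8.856 to 9.204% in control cells. All globins together came to 206.8 to 238.5 CPM with DOX and 821.2 to 864.6 CPM in control cells. How reads shared by near-identical globin copies were counted is not given, so the adult-type values in particular are uncertain. Hbb-bs, an adult copy, had 4.09, 1.5 and 2.09 CPM with DOX, against 2.89, 6.12 and 2.75 CPM in control cells, which overlapped (adjusted p = 0.0867); it passed without the first DOX library (-1.3), the first control library (-0.91) or the third (-0.99).

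Genes of the red-cell membrane and of haem synthesis were spread widely. Epb42, a protein of the red-cell skeleton, had 4.48, 2.98 and 3.82 CPM in iETV2 with DOX, against 37.1, 34.7 and 33.8 CPM in control cells (-3.38 ± 0.12). Alas2, the erythroid enzyme that starts haem synthesis, averaged 5.35 CPM with DOX and 25.6 CPM in control cells (-2.41). Fech, which closes haem synthesis in all cells, had 53.4, 50.9 and 52.9 CPM with DOX, against 94.3, 90.5 and 94.0 CPM in control cells (-0.98). Car2, a carbonic anhydrase used well beyond red cells, was higher, at 240, 230 and 252 CPM with DOX, against 165, 156 and 155 CPM in control cells (0.45), and averaged 263.5 CPM without DOX. The only other higher gene of the list was Rhd (1.64).

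Megakaryocyte and leukocyte genes were scarce outside a few members. Of those tested, 61.5% and 55.0% passed, against 57.4% of all genes tested, so neither share stood out. Of 19 megakaryocyte and platelet genes 13 were tested, with 7 lower, 1 higher and 5 that did not pass, and a median of -0.49; without the third control library 3 were higher, 2 of them large. Itga2b (CD41), an integrin on the first blood progenitors as well as platelets, had 15.3, 15.0 and 17.1 CPM in iETV2 with DOX, against 93.0, 92.1 and 92.8 CPM in control cells (-2.70 ± 0.06, adjusted p = 4.38e-13). Its partner Itgb3 had 10.4, 10.6 and 10.2 CPM with DOX, against 37.6, 39.3 and 39.3 CPM in control cells (-2.04). The 3 large ones were Itga2b, Itgb3 and the integrin activator Fermt3 (-2.32); platelet genes such as Pf4 and Gp1bb, at means of 0.346 and 0.00606 CPM with DOX, against 0.0572 CPM and no count in control cells, were too low to test. Of 28 leukocyte and myeloid genes 20 were tested, with 9 lower, 2 higher, 9 that did not pass and a median of -0.54, whose sign turned in several settings (-0.78 to 0.51), as when the first DOX library (0.05) or any control library (0.11 to 0.23) was left out. The 3 large and lower ones were Fcgr3, Was and Mpo, with 1 left when the second DOX library was dropped. Mpo, the granule enzyme of myeloid cells, had 1.49, 0.894 and 1.87 CPM with DOX, against 5.59, 5.12 and 5.77 CPM in control cells (-2.11). Ptprc (CD45), the general leukocyte marker, stayed at 0.281, 0.234 and 0.618 CPM with DOX, against 0.0898, 0.0980 and 0.158 CPM in control cells (adjusted p = 0.0528). Kit, the receptor for stem cell factor, had 63.0, 68.6 and 66.2 CPM with DOX, against 115, 119 and 120 CPM in control cells (-0.98), and averaged 81.44 CPM without DOX.

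**Figure D2:**
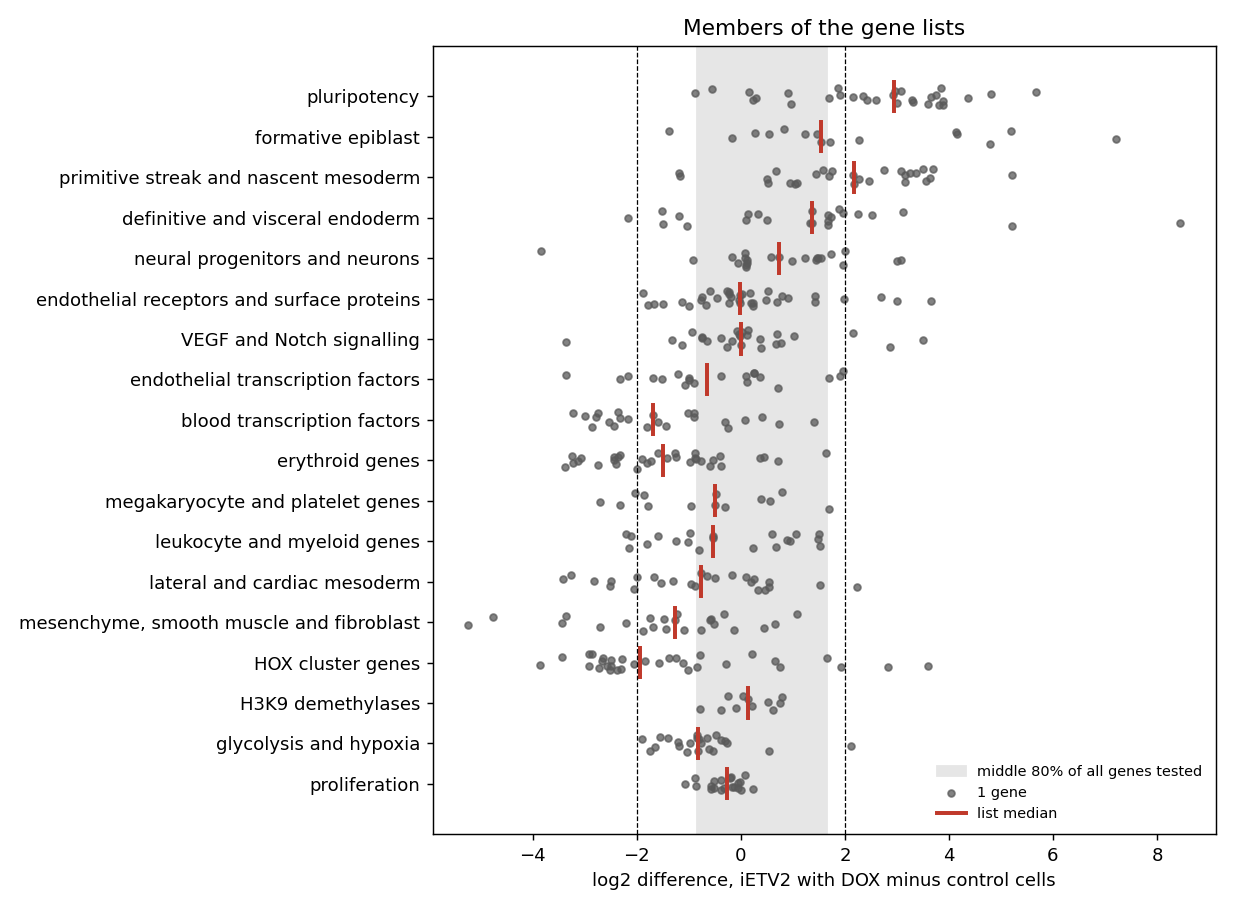
Log2 difference (iETV2 with DOX minus control cells) of each tested member of 18 gene lists; each dot is 1 gene, red bars are list medians, the grey band is the middle 80% of all genes tested (-0.84 to 1.65) and dashed lines mark a log2 difference of 2 in either direction. Pluripotency (median 2.94) and primitive streak genes (2.18) lie to the right, blood transcription factors (-1.69), erythroid genes (-1.51) and HOX genes (-1.94) to the left, and endothelial receptors around 0.

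Primitive streak and nascent mesoderm genes were higher in iETV2 with DOX almost throughout. Of 27 tested, 25 were higher and 2 lower, where 28% of all genes tested were higher. Large differences were higher in 15 and lower in none, against 7.31% and 2.02% of all genes tested, and the median was 2.18. Summed levels were 2096 to 2211 CPM with DOX, against 596.5 to 604 CPM in control cells. T (brachyury), the streak T-box factor, had 695, 652 and 690 CPM in iETV2 with DOX, against 63.5, 63.3 and 65.5 CPM in control cells (3.26 ± 0.05, adjusted p = 1.79e-14), 9.56-fold higher. Eomes, its relative of the early streak, had 236, 229 and 229 CPM with DOX, against 44.4, 47.9 and 46.2 CPM in control cells (2.18 ± 0.05), and the homeobox gene Mixl1 had 325, 325 and 301 CPM with DOX, against 99.8, 94.3 and 93.7 CPM in control cells (1.58). These genes were not absent from control cells. Foxa2, of the anterior streak and endoderm, had 18.7, 19.4 and 19.1 CPM with DOX, against 0.665, 0.176 and 0.522 CPM in control cells (5.21 ± 0.20), and Chrd, a BMP antagonist of the node, averaged about as much, at 18.1, 17.4 and 19.1 CPM with DOX, against 1.54, 0.784 and 1.41 CPM in control cells (3.70). Foxa2 and Chrd were higher still in iETV2 without DOX, at 108.7 and 114.1 CPM. T averaged 861.6 CPM in iETV2 without DOX and 254.7 CPM in DKO cells, Eomes 125.7 and 219.9 CPM, and Mixl1 74.85 and 301.8 CPM. The 2 lower genes were Cdx2 (-1.19) and Cdx4 (-1.17), caudal factors that act on HOX genes and embryonic blood; Cdx2 averaged 40.4 CPM with DOX and 83.5 CPM in control cells.

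Pluripotency genes gave the highest median of the 24 lists beside the sex-linked one. Of 30 tested, 27 were higher, 2 lower and 1 did not pass, where 28% of all genes tested were higher. Large and higher were 20, against 7.31% of all genes tested, and the median was 2.94. Nanog had 115, 110 and 118 CPM in iETV2 with DOX, against 6.41, 6.70 and 7.83 CPM in control cells (3.88 ± 0.07, adjusted p = 7.56e-14), 14.7-fold higher. Sox2, the partner of OCT4, had 44.0, 39.7 and 35.6 CPM with DOX, against 4.20, 5.12 and 4.49 CPM in control cells (2.97 ± 0.10). Zfp42 (REX1), a marker of naive cells, had 34.9, 33.1 and 36.6 CPM with DOX, against 0.359, 0.686 and 0.775 CPM in control cells (5.68 ± 0.14), and Dppa5a 54.9, 51.5 and 59.2 CPM with DOX, against 2.07, 3.02 and 2.21 CPM in control cells (4.36 ± 0.11). Pou5f1 averaged 403.9 CPM in iETV2 without DOX and 369.5 CPM in DKO cells, Nanog 130.3 and 210.3 CPM, and Sox2 46.29 and 109.9 CPM. In the same groups Zfp42 averaged 14.25 and 17.37 CPM and Dppa5a 18.52 and 115.4 CPM. The list was not uniform. Sall4, a zinc finger factor of stem cells and early mesoderm, had 538, 542 and 478 CPM with DOX, against 404, 388 and 398 CPM in control cells (0.24). Lin28a, an RNA-binding protein that blocks let-7 miRNAs, had 544, 524 and 495 CPM with DOX, against 423, 429 and 414 CPM in control cells (0.15), and lost its pass when any library but the third DOX library was left out (0.1 to 0.2). Trim71, an RNA-binding repressor, was lower, at 377, 389 and 322 CPM with DOX, against 467, 496 and 489 CPM in control cells (-0.56). The other lower gene of the list was Tbx3 (-0.89), which lateral mesoderm also uses.

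Formative epiblast genes, which come on as cells leave the naive state, were higher in iETV2 with DOX in 13 of 15 cases, with 6 large and a median of 1.54. Over all genes tested, 28% were higher and 7.31% large and higher. Fgf15 was lower (-1.38) and Tcf15 did not pass. Fgf5, the epiblast growth factor, had 45.2, 44.4 and 41.4 CPM with DOX, against 0.108, 0.451 and 0.253 CPM in control cells (7.21 ± 0.17, adjusted p = 1.26e-12). Otx2, the homeobox factor of epiblast and anterior brain, had 58.9, 57.1 and 57.8 CPM with DOX, against 1.85, 1.65 and 2.15 CPM in control cells (4.78 ± 0.08). Fgf5 averaged 136.1 CPM in iETV2 without DOX and 24.64 CPM in DKO cells, and Otx2 140.0 and 102.9 CPM. Cdh1 (E-cadherin), the adhesion protein of epithelial stem cells and epiblast, had 472, 461 and 460 CPM with DOX, against 69.0, 70.3 and 68.6 CPM in control cells (2.59 ± 0.05). Cdh2 (N-cadherin), which mesoderm gains, was higher as well, at 367, 391 and 348 CPM with DOX, against 215, 211 and 219 CPM in control cells (0.63).

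Lateral and cardiac mesoderm genes were lower more often than higher in iETV2 with DOX. Of 25 tested, 15 were lower, 5 higher and 5 did not pass, where 29.4% of all genes tested were lower and 28% higher. The median was -0.76, and 6 were large and lower, against 2.02% of all genes tested. In 13 the difference was under 1 log2 unit (52.0%), against 74.8% of all genes tested. Hand1, a factor of lateral and extraembryonic mesoderm, had 115, 122 and 116 CPM in iETV2 with DOX, against 624, 590 and 584 CPM in control cells (-2.50 ± 0.05, adjusted p = 3.22e-13). Tbx2 had 5.92, 4.75 and 4.73 CPM with DOX, against 46.1, 43.4 and 44.8 CPM in control cells (-3.27 ± 0.09). Gata4 and Bmp4 stayed within 1 log2 unit. Gata4, a GATA factor of heart and endoderm, had 96.7, 91.8 and 94.0 CPM with DOX, against 75.2, 74.6 and 73.0 CPM in control cells (0.19). Bmp4, the signal that induces ventral mesoderm, had 56.2, 57.4 and 57.8 CPM with DOX, against 83.1, 76.5 and 84.0 CPM in control cells (-0.66). Myl7, an atrial myosin light chain, was the large and higher one, at 3.36, 4.4 and 4.44 CPM with DOX, against 0.593, 1.08 and 0.664 CPM in control cells (2.24). Pdgfra, of paraxial and early mesoderm, was higher too, at 74.5, 75.8 and 79.1 CPM with DOX, against 33.0, 32.6 and 32.3 CPM in control cells (1.08 ± 0.05).

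The 8 lowest genes in iETV2 with DOX were taken among large differences with an average log2 CPM of at least 2. The lowest was Tdo2, a tryptophan dioxygenase, with 20 counts in all with DOX and 1586 in control cells (-6.51). Tbx4, a T-box factor of allantois and hindlimb, had 3.48, 2.68 and 3.71 CPM with DOX, against 141, 138 and 141 CPM in control cells (-5.57 ± 0.09, adjusted p = 2.57e-14), 47.6-fold lower. Pitx1, a homeobox factor of the hindlimb and posterior mesoderm, had 0.826, 1.04 and 1.29 CPM with DOX, against 38.8, 40.1 and 37.7 CPM in control cells (-5.36 ± 0.11). Col1a1, the main fibrillar collagen chain, had 14.3, 10.1 and 10.2 CPM with DOX, against 394, 395 and 390 CPM in control cells (-5.24 ± 0.11). Postn (-4.77), Ptpro (-4.84), Cpne4 (-4.72) and H19 (-4.82) completed the 8. Of 23 mesenchyme, smooth muscle and fibroblast genes tested, 17 were lower, 2 higher and 4 did not pass, with a median of -1.26. Large and lower were 6. In all genes tested the shares were 29.4% lower and 2.02% large and lower. Acta2, smooth muscle actin, had 8.82, 7.96 and 10.7 CPM with DOX, against 91.8, 90.3 and 84.8 CPM in control cells (-3.44 ± 0.09). The broad matrix genes were nearer: Fn1 (fibronectin) had 4844, 5166 and 4419 CPM with DOX, against 6574, 6387 and 6562 CPM in control cells (-0.58), and Vim (vimentin) 490, 466 and 501 CPM with DOX, against 675, 649 and 667 CPM in control cells (-0.60). The listed fibroblast genes include those of feeder layers, and they did not go together. Lum had 0.00606 CPM with DOX and 0.270 CPM in control cells, and Dcn 0.328 CPM with DOX and 0.220 CPM in control cells. Both were near 0, whereas Col1a1 and Acta2 of the same list were abundant in control cells, as given above. A part of feeder cells in either group was not tested.

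HOX cluster genes, which are switched on from low to high paralog numbers as the body axis extends, differed by position. Of 33 listed, 32 were tested, 24 lower, 4 higher and 4 that did not pass, with a median of -1.94. In all genes tested the shares were 29.4% lower, 28% higher, 2.02% large and lower and 7.31% large and higher. Among paralogs 4 to 13, 15 of 24 were large and lower and none large and higher, with a median of -2.34. Among paralogs 1 to 3, 1 of 8 was large and lower, 2 were large and higher and the median was 0.49. Hoxb1, among the first to come on in posterior mesoderm, had 85.5, 83.7 and 77.8 CPM in iETV2 with DOX, against 9.95, 10.6 and 11 CPM in control cells (2.82 ± 0.06, adjusted p = 6.39e-13). Hoxb6 had 2.62, 2.38 and 2.65 CPM with DOX, against 24.6, 24.2 and 26.0 CPM in control cells (-3.44 ± 0.08), and Hoxb5 0.439, 0.689 and 1.45 CPM with DOX, against 10.9, 11.1 and 11.6 CPM in control cells (-3.87 ± 0.25). Hoxa2, the other large and higher one, was low in both, at 1.23, 1.55 and 2.69 CPM with DOX and at most 0.190 CPM in control cells. Hoxb1 and Hoxb6 thus lay on opposite sides within a cluster. HOX genes overlap antisense transcripts, and since the strand setting of the counting is not given, reads of such partners cannot be told apart.

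**Figure D3:**
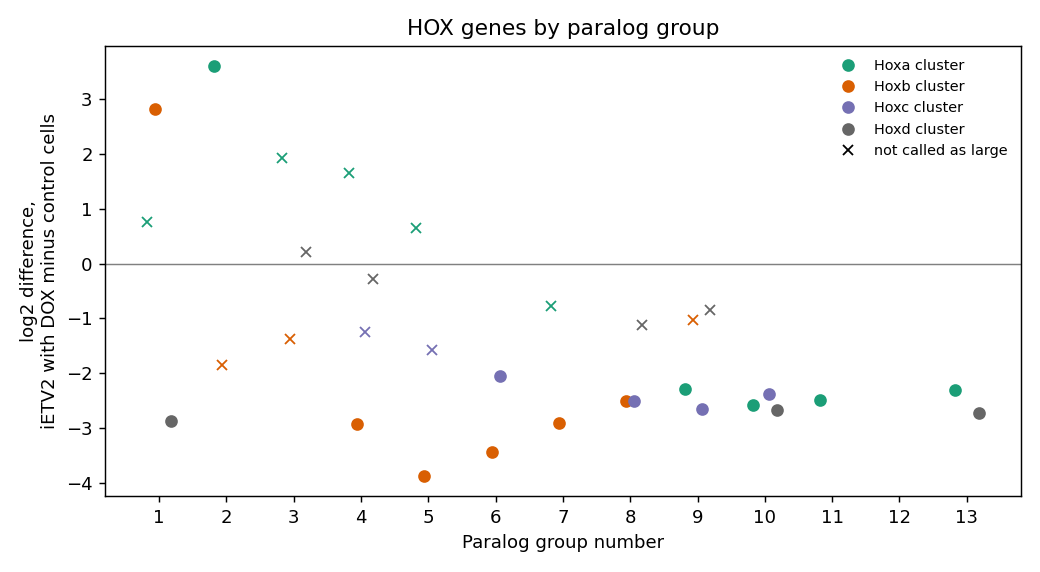
Log2 difference (iETV2 with DOX minus control cells) of each tested HOX gene against its paralog number; colours give the cluster and crosses mark genes without a large difference. Points above 0 gather at paralogs 1 to 5, and all tested genes from paralog 6 on lie below 0.

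Endoderm, neural and trophoblast genes gave mixed pictures. Of 23 endoderm genes tested, 14 were higher, 4 lower and 5 did not pass, with a median of 1.36. In all genes tested the shares were 28% higher and 29.4% lower. Cer1, a secreted NODAL and BMP antagonist of anterior endoderm, had 3410 counts in iETV2 with DOX and 8 in control cells, a ratio of 402 with an exact 95% interval of 204 to 932 that covers counting error only. Foxa1 had 8.98, 8.19 and 8.04 CPM with DOX, against 1.11, 0.823 and 0.696 CPM in control cells (3.11 ± 0.17). Gata6, a factor of endoderm and mesoderm alike, did not differ beyond its error, at 67.8, 68.7 and 63.3 CPM with DOX, against 58.9, 55.8 and 55.2 CPM in control cells (0.09 ± 0.06, adjusted p = 0.211), though it passed without the third DOX library at 0.2. Cer1 and Foxa1 were higher in iETV2 without DOX than with it, at 116.0 and 26.71 CPM. Of 23 neural genes tested, 8 were higher, 2 lower and 13 did not pass, with a median of 0.73. The share passing was 43.5%, against 57.4% of all genes tested. Stmn2, of growing neurites, had 37.7, 32.9 and 37.9 CPM with DOX, against 3.93, 3.74 and 4.43 CPM in control cells (3.01 ± 0.09). With the third library of both groups left out, 13 neural genes were higher, and without the third control library alone 5 were large in place of 3. Of 12 trophoblast genes tested, 7 were lower and 4 higher, with a median of -1.02 and members from -5.22 to 5.59. The share passing was 91.7%, against 57.4% of all genes tested. The summed level of the 15 listed was 1522 to 1736 CPM with DOX, against 3481 to 3576 CPM in control cells. Plac1, an X-linked gene of the placenta, had 1.74, 1.63 and 2.29 CPM with DOX, against 17.0, 17.3 and 16.1 CPM in control cells (-3.31 ± 0.12). Low-level RNA of unrelated receptors was also higher with DOX, and its part in the higher calls of scarce genes was not tested.

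Genes of H3K9 methylation, the mark the study is about, held no large difference, where 9.33% of all genes tested had one. Among genes with at least 5 CPM in the higher group, 4.21% were large and higher and 1.54% large and lower. Lists of 11 and 12 genes are too short for the lack of a large difference to set them apart. Of 11 H3K9 demethylases, 5 were higher, 3 lower and 3 did not pass, with a median of 0.14. Kdm4a had 90.4, 88.2 and 83.4 CPM in iETV2 with DOX, against 53.9, 54.4 and 55.7 CPM in control cells (0.53 ± 0.05, adjusted p = 8.64e-07). Kdm4c had 58.1, 58.2 and 55.0 CPM with DOX, against 30.2, 32.2 and 29.6 CPM in control cells (0.75 ± 0.06, adjusted p = 1.15e-07). Kdm4b overlapped between groups, at 48.1, 45.8 and 43.9 CPM with DOX, against 49.4, 47.3 and 51.2 CPM in control cells (-0.25). Kdm4a and Kdm4c averaged 85.27 and 78.43 CPM in iETV2 without DOX, and Kdm3a, a demethylase that hypoxia raises, was the lowest of the list against control cells (-0.78). Of 12 genes of H3K9 methylation, 7 were lower, 2 higher and 3 did not pass; 3 were lower without the first control library and 4 without the third DOX library. Suv39h1, an H3K9 trimethylase, stood out at 117 CPM with DOX, against 263 CPM in control cells (-1.31), whereas Cbx5 (HP1 alpha), a reader of the mark, had 903, 948 and 863 CPM with DOX, against 944, 973 and 956 CPM in control cells (-0.23), with overlap and no pass without the first control library (-0.2).

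Metabolic genes separated the groups in level though rarely by a large difference. Of 23 glycolysis and hypoxia genes, 21 were lower and 2 higher in iETV2 with DOX, with a median of -0.83. Over all genes tested, 29.4% were lower and 28% higher. Slc2a1, the glucose transporter GLUT1, averaged 295.2 CPM with DOX and 893.8 CPM in control cells (-1.75 ± 0.06), and Gapdh, a glycolytic enzyme, had 4112, 3696 and 4636 CPM with DOX, against 4943, 4808 and 4830 CPM in control cells (-0.38). Both were also high in iETV2 without DOX, at 928 and 5742 CPM. The 2 higher ones were Pdk1 (0.54) and Car9 (2.12), the second at means of 0.716 CPM with DOX and 0.145 CPM in control cells. Of 13 mitochondrially encoded genes, 9 were higher, 1 lower and 3 did not pass, with a median of 0.52 and all 13 within 1 log2 unit. Of 20 proliferation genes, 14 were lower, 1 higher and 5 did not pass, none large, with a median of -0.26; Top2a had 649, 648 and 624 CPM with DOX, against 1038, 1061 and 1042 CPM in control cells (-0.86). With libraries scaled by totals, 5 proliferation genes were higher. p53 targets (7 higher, 8 lower of 18, median -0.04) and genes of the integrated stress response (5 higher, 10 lower of 20, median -0.13) had members in both directions; with libraries scaled by totals 9 of the second list were higher. The higher p53 targets numbered 3 without the first DOX or the third control library and 4 without the second DOX or the first control library. Atf4, the factor of that response, had 197, 180 and 198 CPM with DOX, against 324, 298 and 313 CPM in control cells (-0.85).

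The 8 highest genes in iETV2 with DOX under the same rule were led by 3 Y-linked ones. Y-linked RNA was present with DOX and nearly absent in control cells. Uty had 68.6, 73.2 and 65.0 CPM in iETV2 with DOX, against 0.0359, 0.0392 and 0.0316 CPM in control cells. Eif2s3y had 9294 counts with DOX and 1 in control cells, and Ddx3y 5461 with DOX and 2 in control cells. The same RNA was present in iETV2 without DOX (Uty 68.24 CPM) and nearly absent in DKO cells (0.0831 CPM). The others, from the highest down, were Rprl3, Gbp2b, Meg3, Cer1 and Foxb1. Foxb1, a forkhead factor of the early brain, had 3448 counts with DOX and 12 in control cells. Gbp2b, a guanylate-binding protein, had 1720 counts with DOX and 2 in control cells, and Rprl3, an RNase P RNA-like gene, 1806 with DOX and 2 in control cells. Foxb1, Gbp2b and Rprl3 were also present in iETV2 without DOX, at means of 42.27, 7.06 and 11.3 CPM. Their means with DOX were 19.07, 9.58 and 10.14 CPM, and in DKO cells 1.46, 0.0464 and 0.00588 CPM. Xist and Tsix, X-linked and expressed in opposite directions over each other, were higher as well, at 4.03 and 16.9 CPM with DOX, against 0.916 and 0.793 CPM in control cells.

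Imprinted genes, listed after their values had been seen, held some of the widest gaps. Of 24 tested, 5 were higher and 14 lower, with 3 large and higher, 8 large and lower and a median of -0.74. Over all genes tested, 28% were higher, 29.4% lower, 7.31% large and higher and 2.02% large and lower. With libraries scaled by their totals 8 imprinted genes were higher. The 3 large and higher ones lie together on chromosome 12 and are maternally expressed non-coding RNAs. Meg3 (chr12:109540996-109571729) had 531, 606 and 488 CPM in iETV2 with DOX, against 0.611, 1.31 and 1.71 CPM in control cells (8.64 ± 0.17, adjusted p = 2.5e-13). Rian had 869, 922 and 870 CPM with DOX, against 2.75, 3.96 and 3.45 CPM in control cells (7.89 ± 0.09), and Mirg 113, 104 and 111 CPM with DOX, against 0.431, 0.627 and 0.791 CPM in control cells (7.31 ± 0.11). All 3 were thus close to silent in control cells, while Dlk1, the paternally expressed gene of the same cluster, was lower with 10.7, 9.5 and 7.78 CPM with DOX, against 60.3, 60.2 and 59.9 CPM in control cells (-2.83). On chromosome 7, H19 (chr7:142575530-142578146) had 13.2, 13.1 and 14.2 CPM with DOX, against 348, 340 and 340 CPM in control cells (-4.82 ± 0.05, adjusted p = 3.24e-15), and its neighbour Igf2, a growth factor, 32.6, 35.0 and 24.6 CPM with DOX, against 294, 293 and 267 CPM in control cells (-3.35). Meg3 averaged 607.7 CPM in iETV2 without DOX and 66.0 CPM in DKO cells, and H19 3.95 and 39.6 CPM in the same 2 groups. Peg3 was alike, averaging 1481 CPM with DOX and 1339 CPM in control cells (adjusted p = 0.969); without the third DOX library it passed at 0.12.

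**Figure D4:**
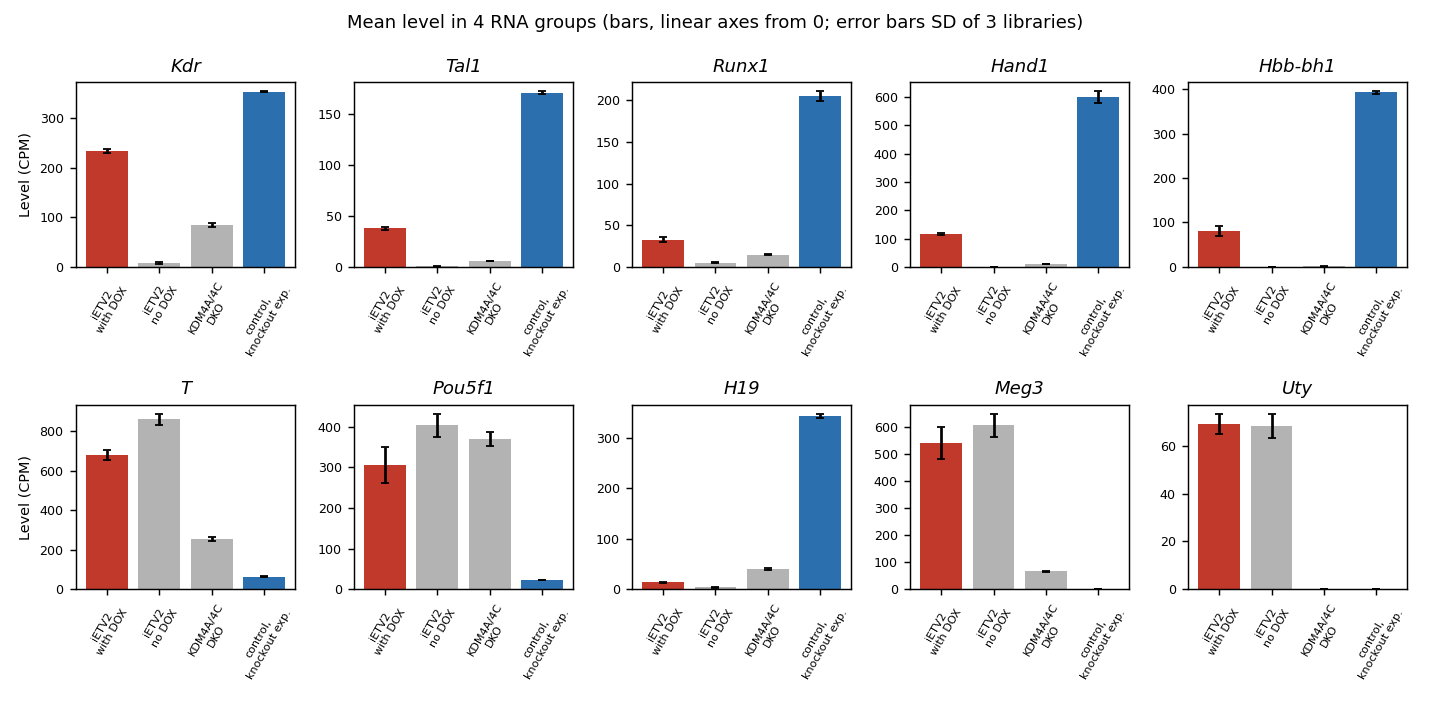
Mean level (CPM, linear axes from 0) of 10 genes in iETV2 with DOX, iETV2 without DOX, KDM4A/4C DKO cells and control cells of the knockout experiment; error bars are the SD of 3 libraries. Kdr, Tal1, Runx1, Hand1 and Hbb-bh1 are highest in control cells and next in iETV2 with DOX, while Meg3 and Uty follow the iETV2 line with or without DOX.

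Ratios of genes within a library do not depend on how libraries are scaled, and 34 were formed from log2 counts with 0.5 added to each count. They are ratios of counts, not of levels per length, so only their difference between groups is read. The groups did not overlap in 31 of 34 (91.2%), of which 20 were lower and 11 higher in iETV2 with DOX. Of the genes tested, 63.6% did not overlap, but these shares are not like for like. The ratios were chosen, many of them share Kdr, and single genes were compared as CPM of library totals. The share among other ratios was not computed. With 3 libraries against 3, the exact permutation test cannot go below p = 0.1 (two-sided), which those 31 reached, and 0.1097 after Benjamini-Hochberg adjustment over the 34 ratios. No ratio could pass 0.05 in this design.

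Blood genes were fewer per Kdr count. Log2 Tal1 to Kdr was -2.60, -2.59 and -2.68 in iETV2 with DOX, against -1.04, -1.05 and -1.05 in control cells. Log2 Runx1 to Kdr was -2.77, -2.77 and -2.96 with DOX, against -0.74, -0.80 and -0.81 in control cells, and Itga2b to Kdr -3.90, -3.99 and -3.77 with DOX, against -1.93, -1.94 and -1.92 in control cells. The mean differences were -1.58, -2.05 and -1.96. The endothelial genes Cdh5 and Flt1 were higher per Kdr count, by 0.92 and 0.76, whereas Kit was lower (-0.24). Alone, Kdr differed by -0.75, Cdh5 by 0.18 and Flt1 by 0.02, so the lower Kdr made up most of these 2 gaps. Cdh5 to Kdr was -1.86, -1.89 and -1.80 with DOX, against -2.74, -2.79 and -2.78 in control cells, and Flt1 to Kdr -1.13, -1.12 and -1.24 with DOX, against -1.93, -1.92 and -1.92 in control cells.

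Ratios of partner genes differed in how far the groups lay apart. Tek to Tie1 was 1.02, 1.01 and 0.98 in iETV2 with DOX, against 1.04, 1.01 and 0.96 in control cells, with overlap (exact permutation p = 0.9). Nanog to Pou5f1 and Erg to Fli1 also overlapped, each with an exact permutation p of 0.2; their mean differences of 0.30 and -0.32 were no smaller than some of ratios without overlap, so they are not shown to be alike. Pecam1 to Cdh5 was -1.17, -1.18 and -1.15 with DOX, against 0.90, 0.87 and 0.92 in control cells, so that the sign of the log2 ratio differed. Gata1 to Gata2 was -0.88, -1.06 and -0.97 with DOX, against 0.09, 0.14 and 0.01 in control cells; GATA2 is the earlier and GATA1 the later factor of red-cell formation. Fli1 to Etv2 was 0.74, 0.79 and 0.88 with DOX, against 3.23, 3.03 and 2.95 in control cells, and Kdr to Etv2 3.54, 3.72 and 3.68 with DOX, against 5.59, 5.43 and 5.35 in control cells. Each count of Etv2 thus came with fewer counts of either gene in iETV2 with DOX. Sox17 to Sox7 was -0.81, -0.88 and -1.16 with DOX, against -3.86, -3.91 and -3.90 in control cells.

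Globin and mesoderm ratios were read in the same way. Embryonic globins (Hba-x, Hbb-bh1 and Hbb-y) to Tal1 stood at 2.43, 2.32 and 2.63 in iETV2 with DOX, against 2.25, 2.23 and 2.2 in control cells, a mean difference of 0.23, far less than that of Tal1 or of each globin alone. Hbb-bh1 to Hbb-y was 4.33, 3.90 and 4.10 with DOX, against 3.34, 3.27 and 3.30 in control cells, and Hba-x to Hbb-bh1 0.56, 0.84 and 0.45 with DOX, against -0.04, -0.09 and -0.17 in control cells. In the embryo Hbb-bh1 is made before Hbb-y; here the later globin had the smaller share with DOX. Hand1 to Kdr was -0.99, -0.97 and -1 with DOX, against 0.82, 0.74 and 0.73 in control cells, whereas Pdgfra to Kdr was -1.62, -1.65 and -1.56 with DOX, against -3.42, -3.44 and -3.44 in control cells. Mixl1 to T was -1.1, -1 and -1.2 with DOX, against 0.65, 0.58 and 0.52 in control cells, and Cdh2 to Cdh1 -0.36, -0.24 and -0.40 with DOX, against 1.64, 1.58 and 1.67 in control cells. Kdr to Pou5f1 was furthest apart, at -0.47, -0.11 and -0.56 with DOX, against 3.99, 3.92 and 3.94 in control cells. T to Pou5f1, in contrast, was 1.13, 1.35 and 1.00 with DOX, against 1.51, 1.44 and 1.52 in control cells.

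**Figure D5:**
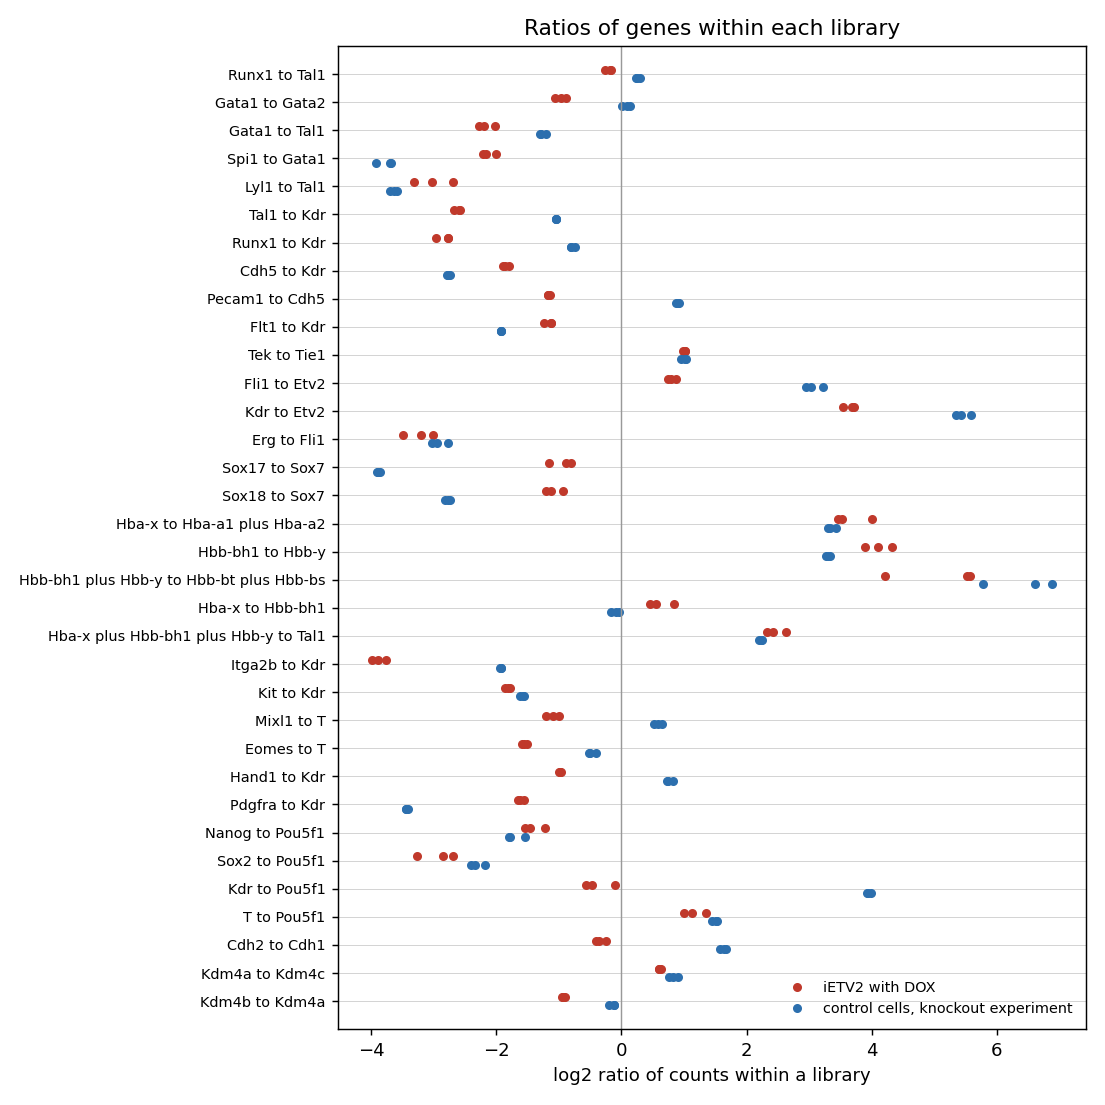
Log2 ratio of counts of gene pairs within each library, with iETV2 with DOX in red and control cells in blue, 3 libraries each; ratios are not corrected for gene length. Kdr to Pou5f1 and Sox17 to Sox7 are furthest apart, and Tek to Tie1 coincides.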

How the data were processed

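RNA was sequenced in 18 libraries, of which 6 are compared here. The unit is raw read counts of 55487 Ensembl genes, deposited by the authors as a table for each library; 55141 genes had a symbol. The submitters' processing notes list featureCounts 2.0.6 and HTSeq 2.0.3 as counters, STAR 2.7.10b as the aligner, and the builds GRCm38 or mm10. The sources used here do not say which counter was used or whether strand was, so overlapping, antisense and near-identical genes are uncertain. Positions and promoters come from RefSeq tables (GRCm38.p6), matched by symbol.

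Counts were analysed in R 4.3.3 with edgeR 4.0.16: filterByExpr by group, TMM scaling, quasi-likelihood F test on the 6 libraries without a block, Benjamini-Hochberg adjustment over 20694 genes. SE is the log2 difference divided by the square root of F. CPM use library totals. Alternatives were DESeq2 1.42.0, other scalings and filters, all 18 libraries, glmTreat, a block and each library left out. On simulated counts the procedure recovered 50 of 50 genes at a log2 difference of 3, and 46 and 50 of 50 at -1 and 1. The simulation changed few genes, none of them scarce, equally in both directions and with a fixed dispersion. It therefore does not show how calls behave for scarce genes or where most genes differ, as here. Ratios were tested with scipy 1.17.1 and plotted with matplotlib 3.10.9.

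The compared groups and the 24 lists were chosen with earlier results of these data known; the imprinted list was added after its values were seen. Named genes follow a rule: the 4 markers, Etv2, Kdm4a to Kdm4c, genes of the ratios, per list up to 3 with the largest differences in each direction and up to 3 abundant ones within 1 log2 unit, and the 8 largest per direction over all large differences with an average log2 CPM of at least 2 (0 within lists), no overlap and a symbol that is not a Gm, Rik or pseudogene name. Eng, Ptprb, Vegfa, Gfi1b, Alas2, Pf4, Gp1bb, Ptprc, Cdx2, Cdx4, Lum, Dcn, Suv39h1, Kdm3a, Slc2a1, Pdk1, Car9, Xist, Tsix, Cbfa2t3, Nfe2, Klf1, Mecom, Bcl11a, Zfpm1, Rhd, Fgf15, Tcf15 and imprinted genes other than H19 and Meg3 stand outside the rule and were picked with their values known. The labels of both groups carry the numbers 1 to 3. Deviations of same-numbered libraries from their group means correlated at 0.253, 0.102 and 0.48, and those of differently numbered ones at -0.412 to 0.237. Same numbers were all over 0.1, which was the criterion for pairing, but the labels name no shared batch and the groups come from different experiments. The reported calls are without the block; the blocked counts are given at the end. ChIP files were not used here.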

Additional observations from a re-analysis of the deposited data

How the results depend on the processing

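With the replicate block, 12685 genes passed, 1624 large and higher and 437 large and lower in iETV2 with DOX, and among named genes the calls of Trim28 and mt-Co1 alone changed, both gaining a pass; against 11881, 1512 and 419 as reported. Requiring at least 10 CPM in 3 libraries tests fewer genes and gave 7393 passing, 347 large and higher and 118 large and lower. A test of the difference against a log2 size of 2 (glmTreat) gave 721 higher and 211 lower. Genes with at least 5 CPM in the higher group, a setting added after seeing the data, gave 490 and 179. Leaving out each library in turn gave 10165 to 12096 passing, 1402 to 2353 large and higher, and 396 to 523 large and lower; the highest, 2353, was without the third control library, and its cause was not tested. Leaving out the third library of both groups, also added later, gave 12024, 1871 and 493. DESeq2 gave 10829, 1775 and 447. Of 174 named genes tested, 143 kept their call in each of the 14 settings that tested them and 31 did not. The filter of at least 10 CPM in 3 libraries left the scarcer named genes untested, so it says nothing about their calls. None of the 73 large named genes changed sign, and 5 fell under a log2 size of 2 in some setting. Psat1 alone reversed, to 0.03 with library totals. Medians of 5 of 25 lists changed sign: endothelial receptors (-0.05 to 0.13), VEGF and Notch (-0.05 to 0.15), leukocyte (-0.78 to 0.51), p53 targets (-0.10 to 0.11) and stress response (-0.18 to 0.02). Ratios with groups apart numbered 31 to 33 of 34. Depth was ample for genes above 5 CPM; below 1 CPM the scattered low-level RNA that was higher with DOX limits what a call means.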
